A study of Rattus norvegicus with 311 samples.

Results

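Gemfibrozil is a fibrate, a lipid-lowering drug that activates the nuclear receptor PPAR-alpha. Its response at 100 µM on days 3 and 7 was read from 32 of the 311 libraries of the series, 16 from gemfibrozil wells and 16 from vehicle wells. The libraries were chosen by name: every 100 µM gemfibrozil well and every vehicle well of these days on plates 1, 3, 5 and 7, in both cultures. Each plate held 1 treated and 1 vehicle well for each day and culture, so each treated well has a vehicle partner. The 2 treated wells of plate 9, which held no vehicle well, were left out of the comparisons. All wells held primary hepatocytes of male Sprague Dawley rats from a commercial supplier on collagen-coated plates. In the co-culture wells the hepatocytes grew with non-parenchymal liver cells, and in the monoculture wells they grew alone. Compound or vehicle was given for the day before sampling. The gemfibrozil response was set beside 16 wells given 10 µM and 14 wells given 1000 µM of the same drug. A further 15 wells had received GW7647 at 1 µM, a more potent and selective PPAR-alpha agonist. Biological replicates are stated in the labels without mention of separate animals, and every p-value here therefore reflects well-to-well spread, which may be technical.

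PPAR-alpha is a receptor for fatty acids and for fibrates. With its partner RXR it binds DNA at paired half-sites and raises transcription of the genes that take up, activate and oxidise fatty acids. In rat liver its best-known targets are the Cyp4a omega-hydroxylases, the peroxisomal beta-oxidation enzyme Ehhadh, the thioesterase Acot1 and the fatty acid carrier Fabp1. TempO-Seq counts ligated pairs of detector oligonucleotides, so the values exist for targeted transcripts alone. Levels are given as CPM, counts scaled to a common library total after normalisation between libraries, and responses as the log2 fold change of gemfibrozil over vehicle with its standard error.

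The 32 libraries held 3392976 to 8784797 counts, with a median of 5305861. Hepatocyte markers were uneven in level. Alb, the serum albumin gene, ran from 704 to 5650 CPM in gemfibrozil wells and from 386 to 6083 CPM in vehicle wells. Ttr, another plasma protein gene, had medians of 10970 CPM in gemfibrozil wells and 13770 CPM in vehicle wells. Some other markers were low in both arms. The medians in gemfibrozil and vehicle wells were 3.42 and 4.62 CPM for Cps1, and 1.97 and 2.36 CPM for Cyp2e1. The breadth of the libraries differed between the arms, in opposite directions on the 2 days. On day 3 the median number of probes with a count was 12264 in gemfibrozil wells, against 11238.5 in vehicle wells. On day 7 it was 13088.5 in gemfibrozil wells, against 14263 in vehicle wells. The share of counts in the 10 most abundant probes showed the same contrast, with medians of 13.7% in gemfibrozil wells against 16.55% in vehicle wells on day 3, and of 12.35% in gemfibrozil wells against 9.5% in vehicle wells on day 7. The 10 µM wells, with 0 calls against vehicle on either day, also differed from vehicle this way: their medians were 11938.5 probes and 14.8% on day 3, and 13224 probes and 11.75% on day 7. The part of this breadth in the results was not tested beyond the values given beside them. Wells also shared their plate: residuals of a treated well and its vehicle partner correlated by 0.35 on average over 16 pairs, and 14 pairs lay above 0.1. Plate was therefore kept as a block, beside day and culture.

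**Figure D1:**
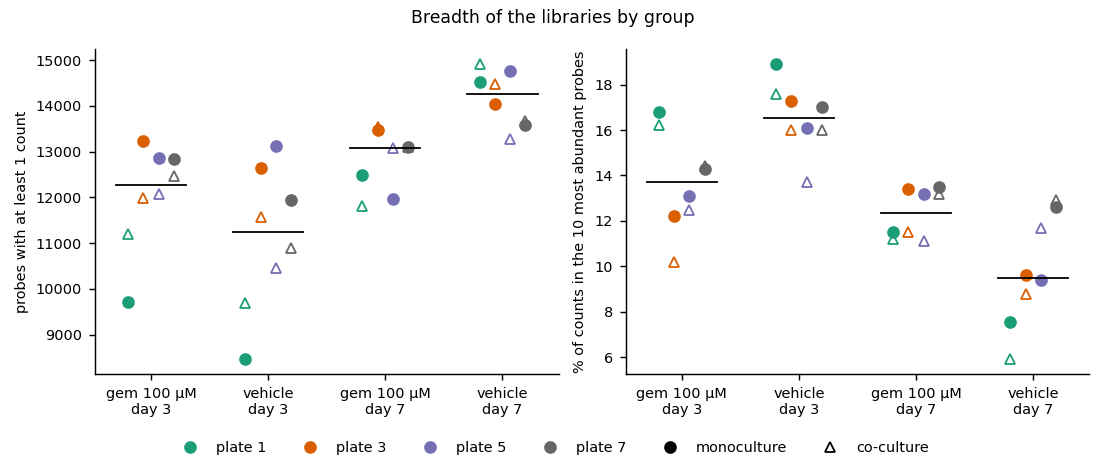
Breadth of each library: probes with at least 1 count (left) and percent of counts in the 10 most abundant probes (right), per well, with the group median as a line. Colour gives the plate and shape the culture. The day 7 gemfibrozil wells, at a median of 13088.5 probes, lie lower than the day 7 vehicle wells at 14263 with some overlap, and the medians are in the opposite order on day 3.

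Of the treated libraries, 2 stood apart from their groups. The library labelled gemfibrozil 100 µM, co-culture, day 3, plate 3 had 1113 CPM of Ddit3 and 969 CPM of Gdf15, both genes of the integrated stress response. The other 7 treated wells of day 3 ran from 53.5 to 161 CPM of Ddit3 and from 88.8 to 135 CPM of Gdf15. Vehicle wells of day 3 ran from 69.8 to 202 CPM of Ddit3 and from 104 to 187 CPM of Gdf15. On plates 1 and 5 the 1000 µM wells of day 3 had 960 to 1520 CPM of Ddit3. The library labelled gemfibrozil 100 µM, co-culture, day 7, plate 1 had the highest treated level of Cyp4a2, Acot1, Ehhadh, Fabp1 and Eci1. Many of the calls and counts that changed without 1 of these 2 libraries are given with and without it, but not all. That choice was made after their values were seen. Ddit3 lies outside the rule that chose the genes to name and was chosen after its values were seen.

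With both days together, 1 of 12013 probes rose with gemfibrozil, 0.00832% of those tested, and 0 fell (0%), by edgeR's quasi-likelihood test at an adjusted p of 0.05. Unadjusted, 484 probes had p under 0.05. DESeq2 also called 1 probe. The probe that rose was 1 of 2 for Cyp4a2, a cytochrome P450 that omega-hydroxylates fatty acids. The count was 0 when plate was not in the model, and also 0 without the day 7 library that stood apart, where the same probe had an adjusted p of 0.196 and a log2 fold change of 2.54. The library that stood apart on day 3 made no such difference, with an adjusted p of 0.0368 for Cyp4a2 when it was left out.

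On day 3 this Cyp4a2 probe ran from 1.02 to 181 CPM in gemfibrozil wells with a median of 20.9 CPM, and from 0.437 to 26.4 CPM in vehicle wells with a median of 2.64 CPM. The level differed by plate: in monoculture the gemfibrozil wells of plates 1, 3, 5 and 7 had 181, 1.02, 34.6 and 7.12 CPM, against 26.4, 0.437, 3.83 and 2.19 CPM in their vehicle partners. In co-culture they had 147, 4.75, 117 and 4.46 CPM, against 13.8, 1.58, 3.09 and 1.42 CPM with vehicle. Every treated well exceeded its own vehicle partner (8 of 8), although the arms overlap when plates are ignored. On day 7 the probe had a median of 25.4 CPM in gemfibrozil wells and 7.72 CPM in vehicle wells, and 6 of 8 treated wells exceeded their partner. The log2 fold change was 2.68 ± 0.48 over both days (SE, adjusted p = 0.0451), 2.85 ± 0.44 on day 3 (adjusted p = 0.00391) and 1.73 ± 0.57 on day 7 (adjusted p = 0.0459). The day 7 call was lost without the library that stood apart on that day, at 1.12 (adjusted p = 0.143). Without the plate block the day 3 value was 3.30, with an adjusted p of 0.64.

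The second Cyp4a2 probe was at or near 0 in most day 3 vehicle wells and reached 23.4 CPM in a gemfibrozil well. Its log2 fold change was 3.19 ± 1.18 on day 3 (adjusted p = 0.158), and on day 7 it rose by 2.47 ± 0.72 (adjusted p = 0.0327). Without the day 7 library that stood apart the second probe had 1.95 (adjusted p = 0.0694). Cyp4a1, a second omega-hydroxylase, moved alike on day 3 without passing the test, at 3.64 ± 1.12 (adjusted p = 0.0962). Without the day 3 library that stood apart, Cyp4a1 passed at 3.83 (adjusted p = 0.0348). The near-identical members of the Cyp4a family may share reads, and how the probes separate them is not given in the sources used here. The promoter of Cyp4a2 is printed as the gene that was called with both days together, and that of Fabp1 because it was the 1 promoter among the fatty acid genes to hold the motif sought.

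The bases run from 250 before to 50 after the annotated start, from RefSeq on GRCr8, Cyp4a2 at chr5:134170859-134171158 on the minus strand and Fabp1 at chr4:104749090-104749389 on the plus strand. Capitals mark the match to the motif.
Cyp4a2: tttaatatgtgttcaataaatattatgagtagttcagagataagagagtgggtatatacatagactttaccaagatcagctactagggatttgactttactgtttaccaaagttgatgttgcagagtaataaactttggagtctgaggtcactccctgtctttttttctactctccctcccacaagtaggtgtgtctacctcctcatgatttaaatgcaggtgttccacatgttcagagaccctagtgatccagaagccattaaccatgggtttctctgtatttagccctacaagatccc
Fabp1: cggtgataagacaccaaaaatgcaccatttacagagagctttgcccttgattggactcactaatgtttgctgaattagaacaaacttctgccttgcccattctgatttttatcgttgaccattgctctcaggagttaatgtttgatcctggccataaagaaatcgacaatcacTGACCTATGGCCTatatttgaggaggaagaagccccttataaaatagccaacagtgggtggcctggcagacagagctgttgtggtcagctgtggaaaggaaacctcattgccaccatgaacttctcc

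The motif sought was AGGNCANAGGNCA, the pair of half-sites with 1 base between them that PPAR-alpha and RXR bind, on both strands (TGNCCTNTGNCCT on the other). It was found in 139 of 33469 RefSeq promoters of the same 300 bases (0.415%). Of 153 promoters found for the 177 genes of the 8 fatty acid and PPAR-alpha lists, 1 held it (0.654%). In Fabp1 the match TGACCTATGGCCT lies from base -77 to -65 relative to the start, on the minus strand. In the window of Cyp4a2 these letters did not occur, which says nothing of sites elsewhere or of other spellings.

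On day 3, 69 of 10831 probes rose (0.637%) and 122 fell (1.13%), by edgeR's quasi-likelihood test at an adjusted p of 0.05. Without the plate block 0 were called, although 1953 had an unadjusted p under 0.05 with it, and DESeq2 called 874. The split by direction moved with the setting: DESeq2 gave 517 higher and 357 lower, no filter on low counts gave 227 and 229, and the number of probes detected as a covariate gave 21 and 118. As a covariate, here and below, this number was the one expected at a common depth of 3392976 counts. It was not the raw number of probes with a count given above. Leaving out the co-culture library of plate 3 that stood apart gave 736 calls, leaving out all wells of plate 1 or plate 3 gave 309 or 365, and leaving out plate 5 or plate 7 gave 0. With the 10 µM wells in the place of vehicle 0 probes were called, and 127 of the 191 called against vehicle kept their sign (66.5%). The median size of those 191 changes was 0.78 against vehicle and 0.11 against the 10 µM wells. Set against the 10 µM wells, Cyp4a2 had 2.86 ± 0.55 on day 3 (SE, adjusted p = 0.887).

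Among the gene lists, 5 probes were called on day 3, beside 0.637% of all probes that rose and 1.13% that fell. Cyp4a2, Insig1 and Dnajc3 rose, and Apoa1 and Apoe fell. They were 1 of 11 omega-hydroxylation, 1 of 19 cholesterol, 1 of 27 stress response and 2 of 15 lipoprotein probes. Without the library that stood apart 3 of 11 omega-hydroxylation probes rose, and of 27 stress response probes 1 rose and 3 fell. In that setting 308 of all 10665 probes rose and 428 fell. Dnajc3, a chaperone of the endoplasmic reticulum chosen after its values were seen, rose by 0.60 ± 0.15 by a single probe. A further Dnajc3 probe was not called. The called probe had 0.32 to 1.10 over 15 alternative settings and was called in 6 of them. Insig1 rose by 1.22 ± 0.30 (SE, adjusted p = 0.0463). Insig1 retains the sterol sensor SCAP, and with it SREBP, in the endoplasmic reticulum. It ran from 20.2 to 148 CPM in gemfibrozil wells and from 11.5 to 30.8 CPM in vehicle wells, higher in 8 of 8 well pairs. Its highest value came from the co-culture library of plate 3 that stood apart, and without it Insig1 still rose, by 0.89 (adjusted p = 0.023). Of the lipid carriers, Apoa1, the main protein of HDL, fell by 0.77 ± 0.13 on the log2 scale (adjusted p = 0.00528) and was lower in all 8 pairs. It ran from 2890 to 14200 CPM in gemfibrozil wells and from 7728 to 27200 CPM in vehicle wells. Apoe, a ligand of the LDL receptor, fell by 0.53 ± 0.13 (adjusted p = 0.0463). Apoe lies outside the naming rule and was chosen after its values were seen. Against the 10 µM wells, the values were -0.17 for Apoa1 and 0.05 for Apoe. Of 15 lipoprotein probes tested on day 3, 4 had a log2 fold change above 0 and the list median was -0.24, beside 58.4% above 0 and a median of 0.10 for all probes. Cell type markers also lay below 0 on day 3, with list medians of -0.16 for hepatocytes, -0.40 for stellate cells, -0.29 for macrophages, -0.30 for endothelial cells and -0.26 for cholangiocytes. Without the library that stood apart these medians were -0.03, -0.15, -0.04, -0.22 and -0.08, and that of the lipoprotein list was -0.11. The probes called lower then went from 1 of 20 to 3 of 19 for hepatocytes and from 2 to 3 of 15 for lipoproteins. Of all probes, those called lower went from 122 of 10831 to 428 of 10665. For macrophages 1 marker, Cd5l, was called lower in both settings. Summed hepatocyte markers, of which Apoa1 is 1, had a median of 53390 CPM in gemfibrozil wells against 59210 CPM in vehicle wells in monoculture, and of 43220 CPM against 49960 CPM in co-culture. Their part in the fall of Apoa1 and Apoe was not tested.

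The fatty acid oxidation lists had 0 calls on day 3, beside 0.637% of all probes that rose and 1.13% that fell. Of the peroxisomal probes 16 of 21 lay above 0, with a median of 0.26, and of the mitochondrial probes 14 of 19, with a median of 0.18. Of all probes 58.4% lay above 0, with a median of 0.10. With the number of probes detected as a covariate 14 of 21 and 12 of 19 lay above 0, with medians of 0.17 and 0.02. Ppara itself, the receptor gene, changed by -0.02 ± 0.22 on day 3.

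Outside the gene lists, the largest falls among the named genes of day 3 were in Cd5l, Msn, Basp1, Jund and Tpm2, by 1.15 to 1.48 on the log2 scale. Cd5l is also on the macrophage marker list. Cd5l is a secreted macrophage protein, Msn (moesin) links actin to the membrane, Basp1 is a membrane-associated signalling protein, Jund is a subunit of the AP-1 factor and Tpm2 is a tropomyosin. Msn had 2578 to 10420 CPM in gemfibrozil wells and 4686 to 16280 CPM in vehicle wells, lower in all 8 pairs. The genes of largest change on each day were named only if most pairs shared the sign. Their pair counts are therefore no separate test. The change of Msn was -1.27 ± 0.21 (SE, adjusted p = 0.00589) against vehicle and 0.18 against the 10 µM wells. Mbl2, a mannose-binding lectin of the complement system, rose by 3.03 ± 0.67 (adjusted p = 0.0294) against vehicle and had -0.37 against the 10 µM wells.

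**Figure D2:**
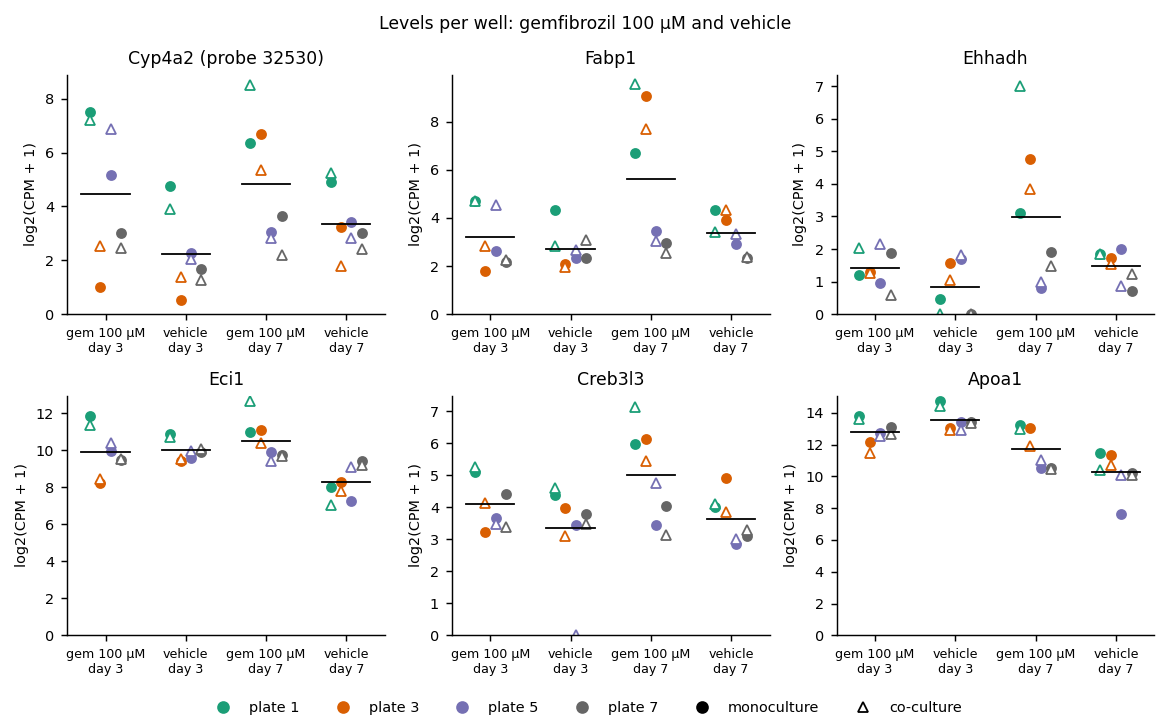
Level per well, as log2(CPM + 1), of 6 genes in gemfibrozil 100 µM and vehicle wells on days 3 and 7, with the group mean as a line, colour for plate and shape for culture. On day 7 the high values of Fabp1 and Ehhadh come from plates 1 and 3, and the gemfibrozil wells of plates 5 and 7 lie among the vehicle wells.

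On day 7, 1048 of 11746 probes rose (8.92%) and 960 fell (8.17%), by edgeR's quasi-likelihood test at an adjusted p of 0.05. With no plate block 2 probes were called, Emc7 and Gfpt1, both lower. Without the co-culture library of plate 1 that stood apart 779 of 11737 were called, 435 higher and 344 lower. Day 7 list counts given below without that library stand beside these numbers. DESeq2 called 3312 probes. Leaving out all wells of plate 1 gave 18 calls, of plate 3 gave 2, of plate 5 gave 559 and of plate 7 gave 2963. With the number of probes detected as a covariate, 0 were called, and 1685 of the 2008 kept their sign (83.9%) at a median size of 0.26 in place of 0.95. Against the 10 µM wells 0 were called, and 1910 of 1963 kept their sign (97.3%) at a median size of 0.38.

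Single genes of fatty acid transport and oxidation rose on day 7, while most probes of these lists did not pass. Of 13 probes of fatty acid binding, uptake and activation 2 rose and 0 fell, beside 8.92% of all probes that rose. They were Fabp1 and Fabp7, of which Fabp7 was chosen after its values were seen. The list median was 0.69, and it was -0.01 with the number of probes detected as a covariate. Of these 13, 0 were called without the library that stood apart. Fabp1, the cytosolic fatty acid carrier of liver, ran from 4.90 to 759 CPM in gemfibrozil wells with a median of 56.6 CPM, and from 4.01 to 19.3 CPM in vehicle wells with a median of 9.38 CPM. It rose by 2.69 ± 0.75 (SE, adjusted p = 0.0297) and was higher in 7 of 8 pairs. The high wells were on 2 plates: gemfibrozil wells of plates 1 and 3 had 103 and 538 CPM in monoculture and 759 and 203 CPM in co-culture, while those of plates 5 and 7 had 4.90 to 9.89 CPM. Without the library that stood apart the value of Fabp1 was 1.88 (adjusted p = 0.0534), and against the 10 µM wells it was 1.56 (adjusted p = 0.63).

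Ehhadh, the bifunctional enzyme of peroxisomal beta-oxidation, had the same pattern over plates. It ran from 0.761 to 128 CPM in gemfibrozil wells and from 0.646 to 2.99 CPM in vehicle wells, and the wells of plates 5 and 7 overlap vehicle. Ehhadh rose by 2.34 ± 0.76 (SE, adjusted p = 0.0448), and its value was 1.26 (adjusted p = 0.125) without the library that stood apart. Acot1, which splits acyl-CoA, ran from 1.18 to 237 CPM in gemfibrozil wells and from 0.152 to 3.63 CPM in vehicle wells. Its change of 3.05 ± 1.08 did not pass (adjusted p = 0.0602).

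Of 23 peroxisomal probes tested on day 7, 4 rose and 1 fell, beside 8.92% and 8.17% of all probes, and the list median was 0.59, beside -0.07 for all probes. Ehhadh, Ech1, Nudt19 and Pecr rose, and Acox2, the bile acid oxidase of peroxisomes, fell by 2.07 ± 0.64. Pecr, a peroxisomal enoyl-CoA reductase, rose by 0.89 ± 0.26 (SE, adjusted p = 0.0326). Ech1, Nudt19 and Acox2 lie outside the naming rule and were chosen after their values were seen. Without the library that stood apart 0 of these probes were called and the median was 0.24. With the number of probes detected as a covariate the median was -0.08 and 7 of 23 lay above 0.

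Mitochondrial fatty acid oxidation gave 7 probes that rose of 20 tested and 0 that fell, beside 8.92% and 8.17% of all probes, with a list median of 0.56. They were Cpt1a, which makes the acylcarnitines that carry fatty acids into mitochondria, the acyl-CoA dehydrogenases Acadm and Acadl, the hydroxyacyl-CoA dehydrogenase Hadh, the trifunctional protein subunit Hadhb, the thiolase Acaa2 and the isomerase Eci1. Acadm, Acadl and Hadh were chosen after their values were seen. Eci1 ran from 679 to 6492 CPM in gemfibrozil wells and from 132 to 679 CPM in vehicle wells, higher in all 8 pairs, and rose by 2.15 ± 0.52 (SE, adjusted p = 0.0213). Acaa2, the last step of the cycle, rose by 1.14 ± 0.31 (adjusted p = 0.0277). Without the library that stood apart Eci1 still rose, by 1.77 (adjusted p = 0.0322), and Acaa2 by 0.87 (adjusted p = 0.0438), and 3 probes of the list were called. Cpt1a, Acadm, Acadl and Hadh then had 0.57 to 0.88, with adjusted p of 0.0604 to 0.0809. With the number of probes detected as a covariate the list median was -0.07 and 8 of 20 probes lay above 0, and Eci1 had 0.36.

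Of 22 other PPAR-alpha responsive probes, 4 rose and 1 fell, beside 8.92% and 8.17% of all probes. Their median was 0.09, and -0.06 with the number of probes detected as a covariate. Without the library that stood apart, 4 of these probes rose and 0 fell, beside 435 and 344 of all 11737 probes. Creb3l3, a membrane-bound liver transcription factor of fasting, had 7.85 to 139 CPM in gemfibrozil wells and 6.14 to 29.4 CPM in vehicle wells. It rose by 1.47 ± 0.32 (SE, adjusted p = 0.0162), was higher in 7 of 8 pairs, and still rose without the library that stood apart, by 1.24 (adjusted p = 0.0305). Retsat, a retinol saturase, rose by 1.21 ± 0.33 and Hsdl2, a peroxisomal dehydrogenase-like protein, by 1.10 ± 0.36. Of 21 lipid droplet and glyceride probes, 5 rose and 1 fell, beside 8.92% and 8.17% of all probes, with a median of 0.47, which was 0.06 with that covariate. Those that rose included Pnpla2, the adipose triglyceride lipase, by 1.22 ± 0.30 (adjusted p = 0.0222) and Agpat2, an acyltransferase of glyceride synthesis, by 0.91 ± 0.26. When the library that stood apart was left out, 1 of the 21 probes rose, and Agpat2 had 0.77 (adjusted p = 0.0715). Lpin1, a phosphatidate phosphatase chosen after its values were seen, fell by 1.44 ± 0.33. Plin2, the main coat protein of hepatocyte lipid droplets, had 0.66 ± 0.34 (adjusted p = 0.167). The ketone body, thioesterase and fatty acid synthesis lists had 0 calls on day 7, of 11, 10 and 15 probes.

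**Figure D3:**
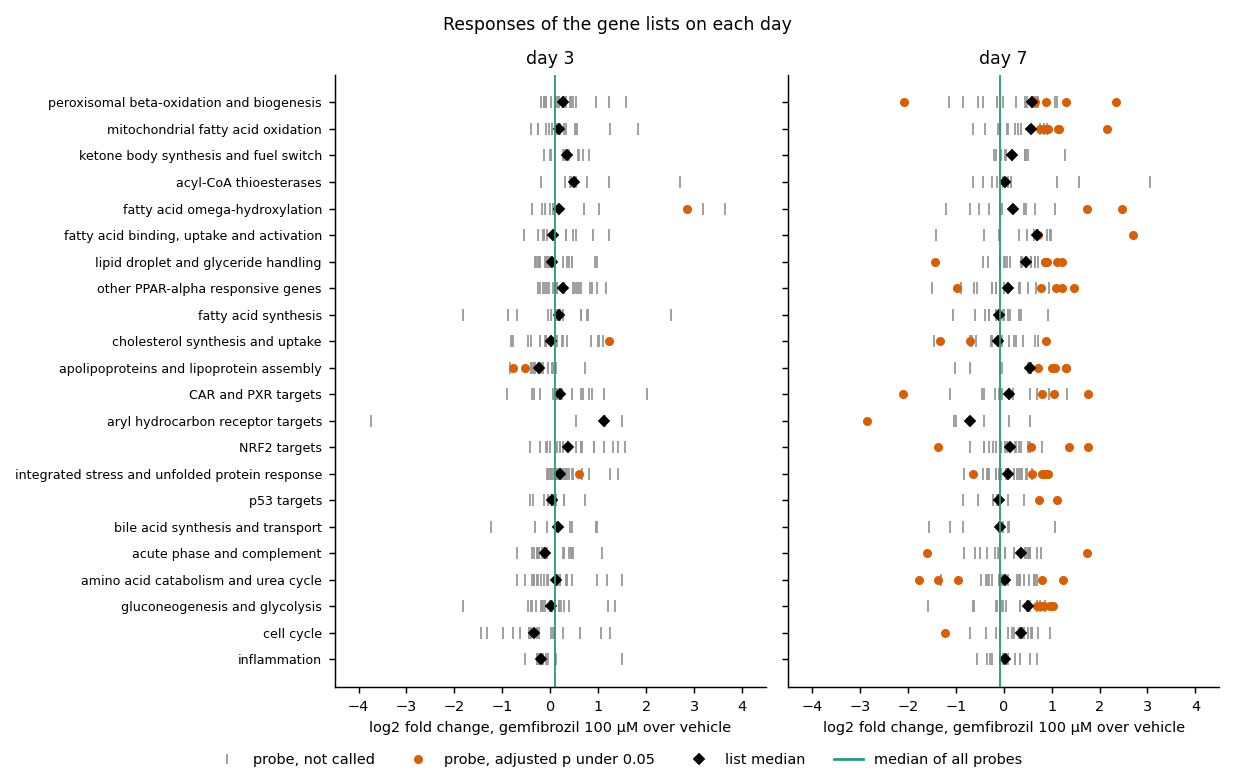
Log2 fold change of gemfibrozil 100 µM over vehicle for each tested probe of the 22 gene lists on day 3 (left) and day 7 (right), with called probes in orange, list medians as diamonds and the median of all probes as a line (0.10 on day 3 and -0.07 on day 7). On day 7 the medians of the peroxisomal list, 0.59, and the mitochondrial list, 0.56, lie to the right of that line.

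Genes of other hepatocyte functions also moved on day 7. Of 15 lipoprotein probes 5 rose, beside 8.92% of all probes: Apoa1, Apoc1, Apoc3, Apoc4 and Apoe, of which Apoe was chosen after its values were seen. Apoc3, which slows the clearance of triglyceride-rich particles, ran from 27.8 to 924 CPM in gemfibrozil wells and from 10.9 to 328 CPM in vehicle wells, and rose by 1.07 ± 0.35 (SE, adjusted p = 0.0481). Apoa1 ran from 1410 to 9492 CPM in gemfibrozil wells and from 200 to 2899 CPM in vehicle wells, higher in all 8 pairs, and rose by 1.30 ± 0.34 (adjusted p = 0.0259). Without the library that stood apart Apoa1 had 1.26 (adjusted p = 0.0511), Apoc3 had 1.02 (adjusted p = 0.0892) and Apoe had 0.99 (adjusted p = 0.0626), and Apoc1 and Apoc4 still rose. Against the 10 µM wells the values were -0.03 for Apoc3 and 0.14 for Apoa1. The summed level of 20 hepatocyte marker probes moved with them: in monoculture it ran from 18470 to 65500 CPM in gemfibrozil wells and from 5407 to 39790 CPM in vehicle wells, and in co-culture from 18520 to 56060 CPM against 17180 to 28230 CPM. Of these 20 probes 18 were tested on day 7, 2 rose and 1 fell, near the 8.92% and 8.17% of all probes. Apoa1 and Hnf4a rose and Tat fell, of which Hnf4a and Tat were named after their values were seen. When the library that stood apart was left out, 1 rose and 0 fell. The part of the hepatocyte markers in the day 7 result was not tested. A higher share of hepatocytes in gemfibrozil wells cannot be told apart from more of this RNA per cell.

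Of 27 probes of the integrated stress and unfolded protein responses, 5 rose and 1 fell on day 7, beside 8.92% and 8.17% of all probes. The list median was 0.09, and -0.02 with the number of probes detected as a covariate. Without the library that stood apart, 1 of these probes rose and 0 fell, beside 435 and 344 of all 11737 probes. Gdf15, a stress-induced cytokine, ran from 282 to 747 CPM in gemfibrozil wells and from 75.1 to 421 CPM in vehicle wells, higher in all 8 pairs, and rose by 0.93 ± 0.20 (SE, adjusted p = 0.0162). Hspa5, the main chaperone of the endoplasmic reticulum, rose by 0.82 ± 0.22 (adjusted p = 0.0277) and Hsp90b1, another of its chaperones, by 0.89 ± 0.26. Without the library that stood apart Gdf15 still rose, by 0.94 (adjusted p = 0.0326), and Hspa5 had 0.72 (adjusted p = 0.0594) and Hsp90b1 0.91 (adjusted p = 0.0562). Against the 10 µM wells Gdf15 had 0.51. Akr7a3, an aflatoxin aldehyde reductase, rose by 1.75 ± 0.48, and Hmox1, heme oxygenase, chosen after its values were seen, fell by 1.38 ± 0.24. Of 26 probes of amino acid catabolism and the urea cycle, 2 rose and 3 fell, beside 8.92% and 8.17% of all probes. Without the library that stood apart 1 rose and 1 fell. Of the urea cycle genes, Nags, which makes the cofactor of the first step, rose by 1.23 ± 0.20 (adjusted p = 0.00814) and Ass1 fell by 1.38 ± 0.30 (adjusted p = 0.0153). Nags ran from 15.6 to 69.7 CPM in gemfibrozil wells and from 4.88 to 24.7 CPM in vehicle wells. Of 21 acute phase and complement probes 1 rose, Hamp, and 1 fell, beside 8.92% and 8.17% of all probes. Hamp, the iron hormone hepcidin, rose by 1.73 ± 0.43, and Fah, the last enzyme of tyrosine breakdown, by 0.79 ± 0.23. Fah had 0.74 (adjusted p = 0.0671) when the library that stood apart was left out. Of 22 probes of gluconeogenesis and glycolysis 5 rose and 0 fell, beside 8.92% and 8.17% of all probes, and 0 were called without that library.

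Markers of the other liver cell types gave 2 calls. Of 15 stellate, 17 macrophage, 9 endothelial and 11 cholangiocyte probes tested on day 7, 1 cholangiocyte probe, Krt7, rose and 1 macrophage probe, Cd68, fell, both named after their values were seen, beside 8.92% and 8.17% of all probes. Krt7 still rose without the library that stood apart, and Cd68 then had -0.98 (adjusted p = 0.0974). The called Krt7 probe was low: over both days its medians were 0.57 CPM in gemfibrozil wells and 1.43 CPM in vehicle wells. Its highest levels were 49.8 and 8.73 CPM in the same order. A further Krt7 probe was not called. Summed macrophage markers in co-culture ran from 1278 to 1822 CPM in gemfibrozil wells and from 969 to 2001 CPM in vehicle wells on day 7. In monoculture on day 7 they ran from 543 to 3331 CPM in gemfibrozil wells, median 1066 CPM, and from 420 to 759 CPM in vehicle wells, median 578 CPM. Summed stellate markers in co-culture ran from 4222 to 20300 CPM in gemfibrozil wells and from 4848 to 23010 CPM in vehicle wells. Monoculture wells held these markers too, at 2074 to 18800 CPM of stellate markers in gemfibrozil wells and 1726 to 15060 CPM in vehicle wells on day 7.

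The response itself differed between the days at 2209 of 12013 probes (18.4%), by the treatment by day term of edgeR's quasi-likelihood test. Of these, 1107 had a higher response on day 7 and 1102 a lower one. With RLE size factors in place of TMM the split was 895 higher and 1569 lower, and the median difference of all probes moved to -0.287, from -0.129 with TMM. Without the plate block 782 were called, and with the number of probes detected as a covariate 0. Fabp1 differed by 2.98 ± 1.00 (day 7 response minus day 3 response, SE, adjusted p = 0.0364) and Eci1 by 2.02 ± 0.58 (adjusted p = 0.0174). Apoa1, lower with gemfibrozil in 8 of 8 pairs on day 3 and higher in 8 of 8 pairs on day 7, differed by 2.13 ± 0.50 (adjusted p = 0.00708). Msn likewise had -1.27 on day 3 and 1.40 on day 7, with a difference of 2.44 ± 0.56 (adjusted p = 0.00697). Slu7, a splicing factor, was lower in all 8 pairs on day 3, at 40.1 to 73.7 CPM in gemfibrozil wells against 76.7 to 130 CPM in vehicle wells. On day 7 Slu7 was higher in all 8 pairs, at 82.4 to 159 CPM in gemfibrozil wells against 39.0 to 107 CPM in vehicle wells, and its difference was 1.57 ± 0.23 (adjusted p = 0.000752). Cyp4a2 did not pass this test, at -0.77 ± 0.95 (adjusted p = 0.601).

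**Figure D4:**
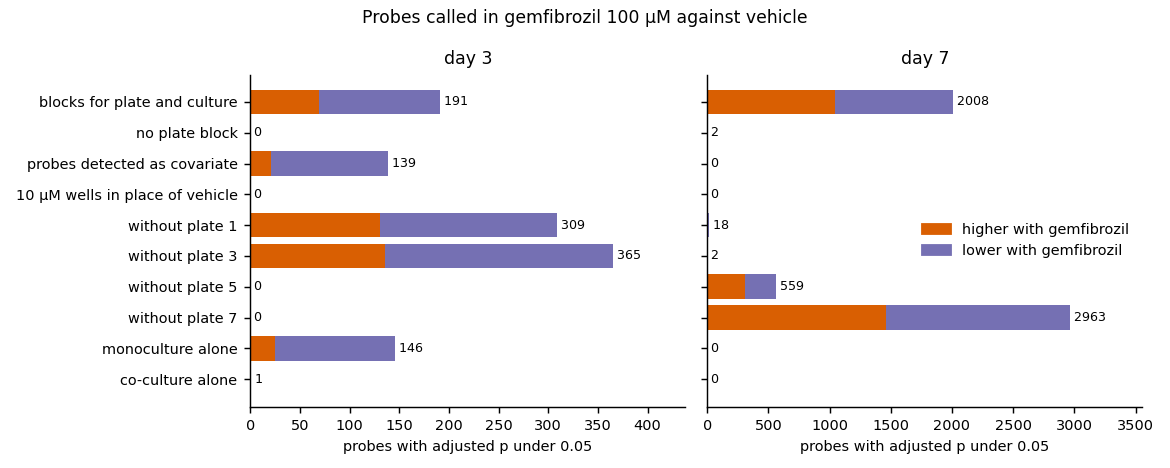
Number of probes called in gemfibrozil 100 µM against vehicle on day 3 (left) and day 7 (right) under the main model and under alternatives, higher in orange and lower in purple. The 191 calls of day 3 and the 2008 of day 7 fall to 0 and 2 without the plate block and to 0 on both days with 10 µM wells in place of vehicle.

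No difference in response between co-culture and monoculture was detectable at this depth and number of wells: 0 of 12013 probes were called (0%) by the treatment by culture term of edgeR's quasi-likelihood test, 144 had an unadjusted p under 0.05, and DESeq2 called 1, RGD1560034. Cyp4a2 differed by 0.65 ± 0.91 (co-culture minus monoculture, SE, adjusted p = 1). Fitted alone, monoculture gave 146 calls on day 3 and 0 on day 7, and co-culture gave 1 and 0. The monoculture response of Cyp4a2 on day 3 was 2.53 (adjusted p = 0.0328) and the co-culture response was 3.14 (adjusted p = 0.701).

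Along the dose series, the Cyp4a2 median on day 3 was 2.64 CPM in vehicle, 3.15 at 10 µM, 20.9 at 100 µM and 7.68 at 1000 µM. On day 7 the Cyp4a2 medians were 7.72, 8.29, 25.4 and 17.0 CPM in the same order. By this Cyp4a2 probe, the one with the higher counts, the highest gemfibrozil median was thus at 100 µM on both days, and the ranges of the groups overlap. By the second Cyp4a2 probe it was at 100 µM on day 3, at 4.31 CPM, and at 1000 µM on day 7, at 4.63 CPM. In the direct contrast over both days, 1000 µM minus 100 µM, Cyp4a2 had -1.56 ± 0.53 (SE, adjusted p = 0.0915). The genes that set the doses apart lay elsewhere: 144 of 12502 probes were higher at 1000 µM than at 100 µM (1.15%) and 156 were lower (1.25%), by edgeR's quasi-likelihood test. With RLE size factors 183 were higher and 127 lower. Without the plate block the contrast had 62 calls, and without the day 3 library that stood apart 743. Day 3 alone had 171 calls and day 7 alone had 2, R3hdml and Alppl2.

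Gdf15 on day 3 had medians of 158 CPM in vehicle, 114 at 10 µM, 110 at 100 µM and 576 at 1000 µM, and the direct contrast of both days was 1.05 ± 0.29 (SE, adjusted p = 0.0369). The 1000 µM wells of plate 7 stayed near vehicle, at 72.6 CPM in monoculture and 106 CPM in co-culture. Insig1 on day 3 had medians of 23.2, 31.5, 39.1 and 150.0 CPM from vehicle to 1000 µM, with a contrast of 1.52 ± 0.42 (adjusted p = 0.0365). Acot2, a mitochondrial thioesterase, had day 3 medians of 18.4 CPM in vehicle, 19.2 at 100 µM and 155 at 1000 µM, with a contrast of 1.52 ± 0.43 (adjusted p = 0.0382). Tmem140 was higher at 1000 µM by 1.63 ± 0.27 and Tmem117 by 3.17 ± 0.57, both transmembrane proteins, and Car3, a carbonic anhydrase of liver and muscle, was lower by 2.11 ± 0.37 (adjusted p = 0.000984). Fits of each day against the same vehicle wells are not independent: 10 µM had 0 calls on both days, and 1000 µM had 1956 on day 3 and 0 on day 7. The number of wells at 1000 µM was 7 on each day.

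**Figure D5:**
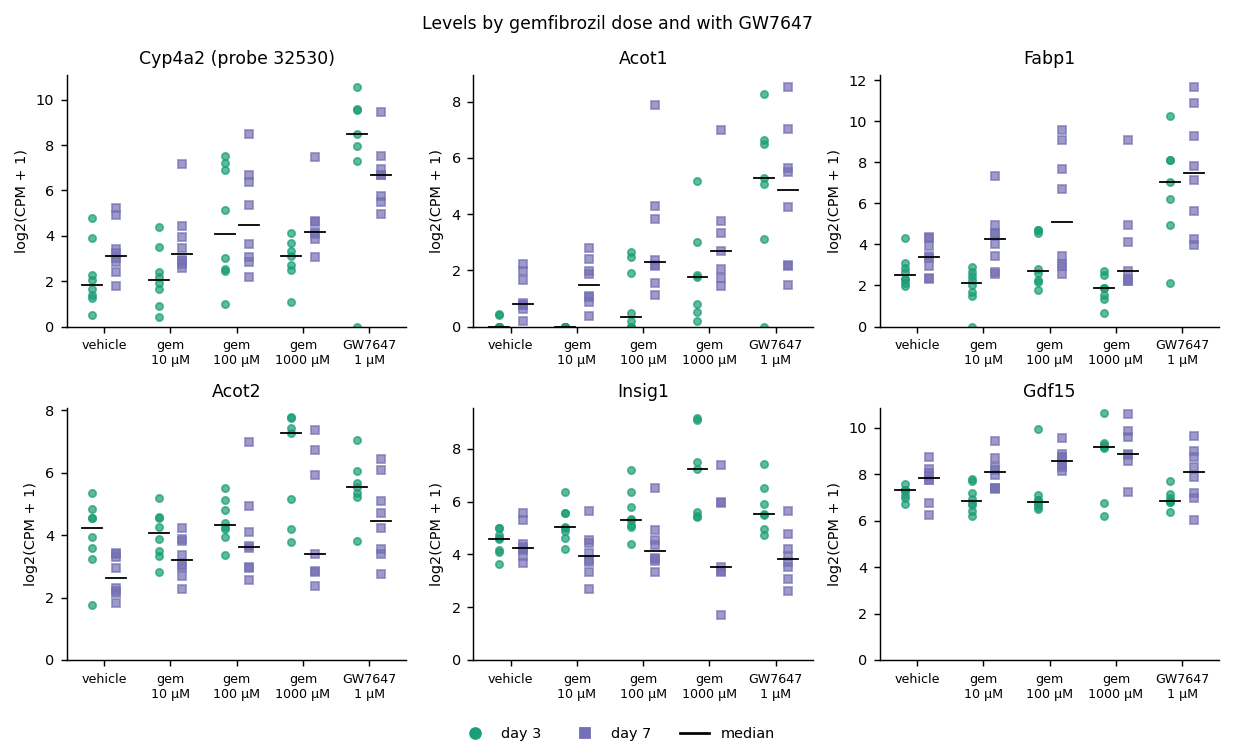
Level per well, as log2(CPM + 1), of 6 genes from vehicle through gemfibrozil 10, 100 and 1000 µM to GW7647 at 1 µM, day 3 as circles and day 7 as squares, with the median as a line. On day 3 the Cyp4a2 median is higher at 100 µM (20.9 CPM) than at 1000 µM (7.68 CPM), and those of Insig1, Gdf15 and Acot2 are highest at 1000 µM.

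Against the more potent agonist, the called genes described here were PPAR-alpha targets of fatty acid and glycerol metabolism. GW7647 at 1 µM minus gemfibrozil at 100 µM gave 6 higher probes of 12502 (0.048%) and 0 lower (0%), by edgeR's quasi-likelihood test over both days. Among them were Cyp4a2 at 2.76 ± 0.53, Fabp1 at 3.12 ± 0.63, Acot1 at 3.83 ± 0.75 and Gk, glycerol kinase, at 1.52 ± 0.31 (SE, adjusted p = 0.0163 for each), with Ehhadh at 2.90 ± 0.63 (adjusted p = 0.0421). Without the plate block 0 were called. Cyp4a2 on day 3 ran from 0 to 1530 CPM with GW7647, median 361 CPM, and from 1.02 to 181 CPM with gemfibrozil, median 20.9 CPM. The 0 came from the library labelled GW7647, co-culture, plate 3, where Acot1 was also at 0, and without it 7 probes were called. Without the gemfibrozil co-culture library of day 7, plate 1, 11 were called. The doses were 1 µM and 100 µM, so these differences compare these wells and not equal exposures. In the same fit against vehicle, GW7647 called 41 probes and gemfibrozil at 100 µM 2, which share the vehicle wells. Fitted by day against vehicle, GW7647 had 40 calls on day 3 and 1 on day 7, and gemfibrozil at 100 µM had 191 and 2008.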

How the data were processed

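TempO-Seq ligates pairs of detector oligonucleotides on target RNA and counts them by sequencing. The deposited table holds raw counts per probe and well for 22253 probes, made by BioSpyder per the labels' protocols; Bowtie is named per the submitters' processing notes, while its version and settings, like the build and the probe list, were not given in the sources used here. Of the probe names 18241 matched a rat symbol or synonym, 362 matched after a trailing decimal was removed and 3650 had no match. Several probes can carry 1 symbol.

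Counts were fitted with edgeR 4.0.16 in R 4.3.3 (TMM scaling, filterByExpr with a minimum count of 10, quasi-likelihood test, two-sided, Benjamini-Hochberg threshold of 0.05), with blocks for day by culture and for plate. The SE is the log2 fold change over the square root of F. Levels are CPM on TMM-scaled libraries. Same-plate residuals correlated by 0.257 on average and different-plate residuals by -0.0837; same-numbered wells shared a plate in the labels, which is where the pairing comes from. DESeq2 1.42.0, RLE size factors, no filter on low counts, other blocks, single cultures, each plate left out and plate 9 included were run as alternatives. Libraries held 3392976 to 8784797 counts, and no 2 were identical.

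Genes were named by rule: the 10 highest and 10 lowest changes past the threshold over both days and the 5 and 5 of each day, at a mean of at least 10 CPM and the same sign in most well pairs, up to 4 genes of each list and each direct contrast, and a fixed set of PPAR-alpha genes. The sign requirement partly fixed the well pair counts of genes named by it, such as Msn, Eci1 and Fabp1. Those counts are no separate test of consistency. Members and lists were chosen with earlier results of these data known. Genes without a probe of their name were not analysed here. Results on some genes are not reported here.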

Additional observations from a re-analysis of the deposited data

Results flagged for a closer look

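Of 96 groups of 4 wells, 23 held a well far from the other 3 by Dixon's criterion. Its nominal rate of about 1 group in 20 is for independent, normally spread values. The wells of a group came from different plates and several genes were related, so the 23 groups cannot be set against that rate. In gemfibrozil co-culture on day 7 the well was that of plate 1 for Cyp4a2 at 361 and 99.6 CPM by its 2 probes, Acot1 at 237 CPM, Ehhadh at 128 CPM, Eci1 at 6492 CPM, Plin2 at 685 CPM and Insig1 at 90.2 CPM. In gemfibrozil monoculture on day 7 single wells stood out for Acot1 at 18.5 CPM, the second Cyp4a2 probe at 33.6 CPM and Cyp4a1 at 130 CPM. In gemfibrozil wells of day 3 they were Fabp1 at 24.9 CPM in monoculture and Insig1 at 148 CPM in co-culture.

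Vehicle wells stood out as well. For Cyp4a2 they had 26.4 CPM in monoculture and 13.8 CPM in co-culture on day 3, and 29.4 and 36.7 CPM on day 7, each on plate 1. The others were Fabp1 at 18.9 CPM, Acot1 at 0.336 CPM, the second Cyp4a2 probe at 1.01 CPM, Cyp4a1 at 0.218 CPM and Apoa1 at 27200 CPM in monoculture on day 3. In co-culture on day 3 they were Acot1 at 0.364 CPM and Cyp4a1 at 6.92 CPM.

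The response differed between the days, as day 7 minus day 3 on the log2 scale by the interaction term of edgeR's quasi-likelihood test, by 2.98 for Fabp1, 2.02 for Eci1, 2.13 for Apoa1, 1.57 for Slu7, 2.43 for Marveld3 and -8.64 for Emc7. For Emc7 all day 7 gemfibrozil wells lay at 0 to 0.588 CPM, against 1.16 to 8.99 CPM in vehicle wells.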

How the results depend on the processing

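Counts of called probes moved by over 1.5 times with many settings, and the cause was not tested. Without the replicate block by plate they were 0 for both days, 0 for day 3, 2 for day 7, 782 for the day difference, 62 for the dose contrast and 0 for GW7647. With a replicate block by plate, day and culture they were 0 for both days and 1266 for day 7. DESeq2 gave 874 for day 3, 3312 for day 7, 3352 for the day difference, 1 for the culture difference, 693 for dose and 19 for GW7647. RLE size factors gave 0 for both days and 10 for GW7647, and no filter on low counts gave 456 for day 3 and 10 for GW7647. Monoculture alone gave 0 for both days and 0 for day 7, co-culture alone 0, 1 and 0 for both days, day 3 and day 7, and plate 9 with no replicate block 0 for both days and day 3. Leaving out each plate in turn gave 0 to 3 for both days, 0 to 365 for day 3, 2 to 2963 for day 7, 695 to 1662 for the day difference, 0 for the culture difference, 0 to 472 for dose and 0 to 5 for GW7647.

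The other alternatives were chosen after seeing the data. Leaving out the co-culture library of day 3, plate 3 gave 736 for day 3, 2241 for the day difference and 743 for dose. Leaving out that of day 7, plate 1 gave 0 for both days, 779 for day 7 and 11 for GW7647, and leaving out both gave 0 for both days and 719 for dose. The dose contrast gave 171 on day 3 alone and 2 on day 7 alone. Probes detected as a covariate gave 0 for both days, 0 for day 7 and 0 for the day difference, and turned Pid1 to 0.64, Hsdl2 to -0.11, Cpt1a to -0.11, Ech1 to -0.03, Hadh to -0.05 and Acadm to -0.16 on day 7. The 10 µM wells in place of vehicle gave 0 for both days, day 3 and day 7, and turned Mbl2 to -0.37, Msn to 0.18, Basp1 to 0.12 and Apoe to 0.05 on day 3, and Apoc4 to -0.19 and Apoc3 to -0.03 on day 7. Of the named called genes 11 of 15 on day 3 and 41 of 49 on day 7 kept their sign under every alternative run. These genes were picked as called and the settings share most of their wells, so kept signs are no separate test. That 0 were called under all alternatives was fixed in advance, since some alternatives called no probe at all.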

Other observations

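The 2 gemfibrozil 100 µM wells of plate 9, day 3, have no vehicle well on their plate and entered no comparison with a plate block. Insig1 had 771 CPM there in monoculture and 451 CPM in co-culture, above the 20.2 to 148 CPM of the 8 gemfibrozil wells on the other plates. Cyp4a2 had 22.2 and 15.7 CPM, within their range.

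At 1000 µM on day 3, Ddit3 had 54.7 CPM in monoculture and 132 CPM in co-culture on plate 7, against 958 to 1520 CPM in the wells of plates 1, 3 and 5.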
